A study of Mus musculus with 6 samples.

Results

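WT-only promoter peaks were ATAC-seq peaks of the WT list that overlapped no peak of the Spen KO clone 3 list by 1 bp or more and whose midpoint lay within 1 kb of the transcription start site (TSS) of a protein-coding transcript. On chromosomes 1 to 19 of mm9, 9133 of 21698 WT peaks had a midpoint within 1 kb of a coding TSS, and 1893 of these promoter peaks (20.7%, 95% Wilson interval 19.9 to 21.6) were WT-only. The other 7240 promoter peaks are called shared. The members were thus chosen by the presence of a peak in the WT list and its absence from the Spen KO clone 3 list, so their number is a description with no test, and the background of 20.7% is the level against which each gene class is read.

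The comparison was between cells with and without Spen. The cells were haploid mouse embryonic stem cells (mESCs) of a mixed genomic background, grown in serum with LIF, and all lines had an Xist transgene under doxycycline control. WT cells kept Spen, and Spen KO clone 3 was 1 clone with a deletion in Spen. The paper calls this deletion full in its results and describes it as covering most of the gene in its materials. The 6 sample records cover 3 lines (WT, Spen KO clone 2 and Spen KO clone 3), each once untreated and once after 48 hr in 2 ug/ml doxycycline. The 2 lists used here name the line and not the doxycycline state, clone 2 was not analysed here, and with 1 list per line no difference between the lines could be tested.

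ATAC-seq marks open chromatin through the insertion of adapters by the Tn5 transposase, and the promoters of active and poised genes are among the most open sites of a cell. Most mammalian promoters lie in CpG islands, stretches of CpG-dense sequence that remain largely unmethylated and are bound by factors such as the Sp, NF-Y and ETS proteins. Spen is a large RNA-binding protein that recruits histone deacetylase corepressors, and it is known for its part in Notch signalling and in X chromosome silencing by Xist.

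Each peak carries the value of each of 2 technical replicates, on a scale that the list does not name. The methods speak of technical replicates, while the labels give each line 1 untreated and 1 treated sample, so from the lists a gap between replicates and a gap between doxycycline states cannot be told apart. The mean of both is called the score, and it was used to rank peaks within the WT list. The number of reads behind the lists is unknown. The Spen promoter itself held a WT peak (score 17.2) that was shared, so the Spen KO clone 3 list also had a peak there. The extent of the deletion could not be checked from the lists. Of 10 embryonic stem cell markers, 4 had a WT promoter peak (Sox2, Zfp42, Sall4 and Utf1) and 3 a Spen KO clone 3 one (Klf4, Zfp42 and Utf1). Pou5f1, Nanog, Esrrb, Tdgf1 and Dppa4 had none in either list. Of 6 fibroblast markers 0 had a promoter peak in either list. Of 10 markers of differentiated or extraembryonic cells 3 had one in the WT list and 1 in the Spen KO clone 3 list.

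The sequences below, from the mm9 genome on the strand of the gene, show what the strongest members look like. They belong to the 6 members with the highest scores, and each is the stretch of the peak, up to 160 bases, that lies outside annotated exons. Capitals mark matches on either strand to the GC box GGGCGG, the CCAAT box, the Rbpj word GTGGGAA or the NRF1 word GCGCATGC.

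Bckdhb, chr9:83818597-83818756, plus strand: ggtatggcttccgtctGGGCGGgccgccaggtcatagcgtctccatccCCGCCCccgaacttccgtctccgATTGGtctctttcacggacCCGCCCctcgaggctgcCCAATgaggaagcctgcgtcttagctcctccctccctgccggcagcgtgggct
Rgs3, chr4:62360410-62360499, plus strand: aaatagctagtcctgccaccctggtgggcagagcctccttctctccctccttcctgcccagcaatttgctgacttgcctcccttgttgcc
Synj1, chr16:91011565-91011724, minus strand: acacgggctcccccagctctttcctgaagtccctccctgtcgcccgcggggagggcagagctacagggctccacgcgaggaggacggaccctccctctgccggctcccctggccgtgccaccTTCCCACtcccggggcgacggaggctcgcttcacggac
Tomm7, chr5:23349980-23350139, minus strand: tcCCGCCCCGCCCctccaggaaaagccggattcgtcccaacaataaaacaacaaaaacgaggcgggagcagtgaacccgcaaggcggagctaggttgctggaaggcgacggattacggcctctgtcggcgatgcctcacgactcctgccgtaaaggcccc
Ap2a2, chr7:148747919-148748078, plus strand: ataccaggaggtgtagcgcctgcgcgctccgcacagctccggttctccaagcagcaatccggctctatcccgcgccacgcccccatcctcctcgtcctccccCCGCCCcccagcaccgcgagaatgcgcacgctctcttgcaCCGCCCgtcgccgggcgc
Apaf1, chr10:90545516-90545675, minus strand: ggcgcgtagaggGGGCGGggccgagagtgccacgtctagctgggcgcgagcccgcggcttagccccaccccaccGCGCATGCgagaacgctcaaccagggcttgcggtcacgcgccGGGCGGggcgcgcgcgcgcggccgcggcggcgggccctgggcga

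Of these 6 stretches, 5 were CpG-rich, with 14 CpG dinucleotides at Bckdhb and 29 at Apaf1. The Rgs3 stretch had 0 CpG in 90 bases and none of the words searched. The GC box was present at Bckdhb, Tomm7, Ap2a2 and Apaf1, and the CCAAT box at Bckdhb. Over the 300 bp around the midpoint of all 9133 WT promoter peaks, these words were found in 72.7% (GGGCGG), 38.7% (CCAAT), 5.42% (GTGGGAA) and 4.45% (GCGCATGC).

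The highest-scoring member lay at Bckdhb (ENSMUSG00000032263.7), which encodes a subunit of the mitochondrial enzyme that breaks down branched-chain amino acids. Its peak (chr9:83818445-83819237) had a value of 45.9 in replicate 1 and 30.8 in replicate 2, a score of 38.3 at percentile 90.9 of the autosomal WT list, and the nearest Spen KO clone 3 peak was 89.8 kb away. The next was at Rgs3 (ENSMUSG00000059810.10), a regulator of G protein signalling, with values of 40.3 and 26.5. Rgs3 has 10 coding starts in the annotation, and at 2 of its other starts the Spen KO clone 3 list did hold peaks, both shared with WT, so the gene was not without promoter peaks in that list. In both genes replicate 1 stood well above replicate 2.

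Synj1 (ENSMUSG00000022973.10), a phosphoinositide phosphatase of synaptic vesicle recycling, had values of 28.1 and 35.2. Tomm7 (ENSMUSG00000028998.6), a subunit of the protein import channel of the outer mitochondrial membrane, had 28.8 and 34.0. Ap2a2 (ENSMUSG00000002957.8), a subunit of the clathrin adaptor AP-2, had 29.4 and 30.4, the closest replicates of these genes. Apaf1 (ENSMUSG00000019979.6), the scaffold of the apoptosome that activates caspases, had 30.1 and 28.0. At these 4 genes the order of the replicates differed, and the Spen KO clone 3 list held no promoter peak, although at Tomm7 and Synj1 it had a peak within 5.79 kb and 7.81 kb.

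The other members among the 12 with the highest scores lay at Hnrnpa0, Tceb3, Casc3, Cald1, Skil and the predicted gene Gm17391. Hnrnpa0 encodes an RNA-binding protein of nascent transcripts and had values of 35.4 and 21.8. Tceb3, which encodes the elongation factor elongin A, had 30.7 and 24.9, and Casc3, a core protein of the exon junction complex, had 27.1 and 27.2. Skil, a corepressor of Smad proteins in TGF-beta signalling, had 31.3 and 23.5, and Gm17391 had 29.4 and 25.1. Cald1, which encodes the actin-binding protein caldesmon, had 22.8 and 32.5, and like Rgs3 it had a shared Spen KO clone 3 peak at another of its 11 coding starts. Of the 12 members, 10 thus lay at genes with no Spen KO clone 3 promoter peak, which is near the 88.1% of all genes with a member.

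**Figure D1:**
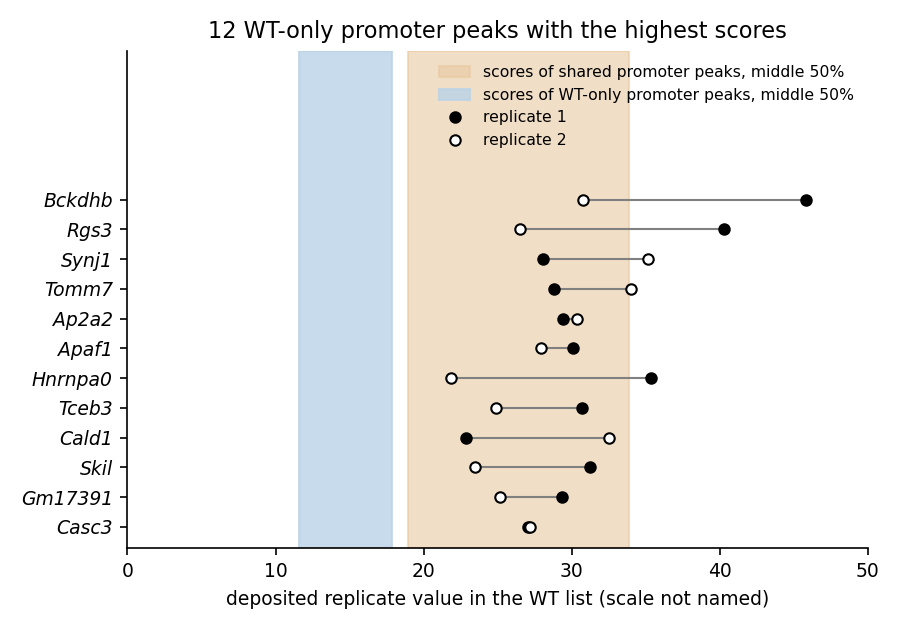
Deposited replicate values (x axis, scale not named) of the 12 WT-only promoter peaks with the highest scores, 1 gene per row, with replicate 1 as filled and replicate 2 as open circles. The bands give the middle 50% of scores of WT-only promoter peaks (11.6 to 17.9) and of shared promoter peaks (19.0 to 33.9), and all 24 values lie above the WT-only band.

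These members were exceptions in strength. Across the 1893 members the replicate 1 value had a median of 14.6 (lowest 5.44, highest 45.9) and the replicate 2 value a median of 14.4 (lowest 6.00, highest 35.2). In the shared promoter peaks the medians were 25.6 and 24.4. The median score of members stood at percentile 23.9 of the autosomal WT list (95% binomial interval 22.7 to 25.3), and that of shared promoter peaks at 70.2 (interval 69.4 to 71.1). Only 15 members were above the shared median in both replicates, and 1271 were below the shared lower quartile in both. The median absolute log2 ratio of the replicate values was 0.24 in either set. All these peaks had already passed a threshold on the irreproducible discovery rate (IDR), which measures replicate agreement. Within that threshold the median IDR was 0.0162 (interval 0.0150 to 0.0178) in members. In shared promoter peaks it was 3.93e-05 (interval 3.18e-05 to 4.87e-05), so members stood nearer to the threshold. Members were also shorter, with a median of 516 bp (interval 504 to 527) against 668 bp (interval 662 to 673).

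The WT-only share fell with every decile of the score. In decile 1, the lowest, 634 of 913 WT promoter peaks were WT-only (69.4%, interval 66.4 to 72.3), in decile 5 19.2% (interval 16.7 to 21.8), in decile 8 0.657% (interval 0.302 to 1.43), and in decile 10 0 of 914, which allows a share of up to 0.419%. Below the median score of the autosomal WT list 1572 of 3501 promoter peaks were WT-only (44.9%, interval 43.3 to 46.6), and at or above it 321 of 5632 (5.70%, interval 5.12 to 6.34). The share of a gene class is therefore given beside the median score percentile of its peaks.

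**Figure D2:**
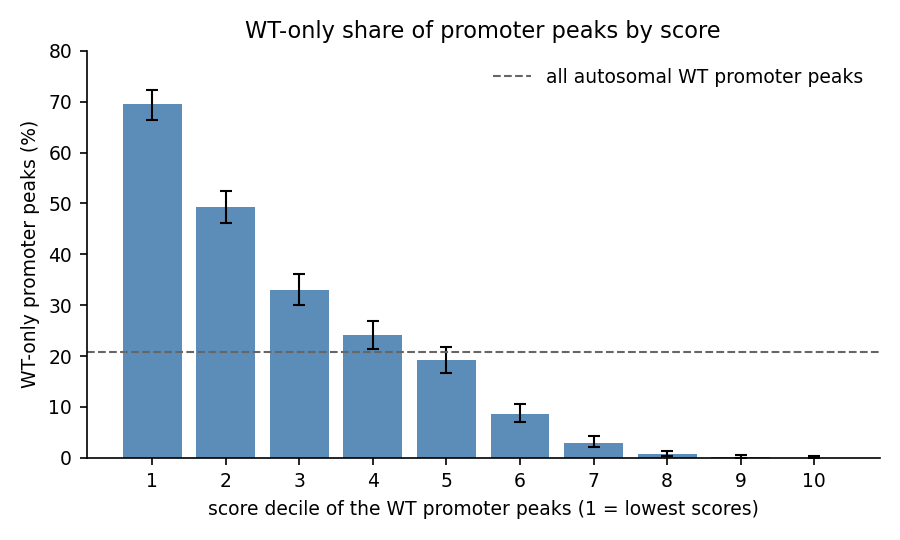
Share of autosomal WT promoter peaks that were WT-only (y axis, percent) in each decile of the score (x axis), with 95% Wilson intervals, and the share over all WT promoter peaks as a dashed line. The share was 69.4% in decile 1 and 0 in decile 10.

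The members lay close to their starts. Midpoints of members had a median distance of 81.5 bp (interval 76 to 86) from the TSS, the same as in shared promoter peaks. Within 100 bp were 57.8% of members and 57.9% of shared promoter peaks. The outer part of the window differed. Of the members 9.35% (interval 8.12 to 10.7) were more than 500 bp from the TSS against 4.77% (interval 4.30 to 5.28) of shared promoter peaks, and among all WT promoter peaks beyond 500 bp, whose median score percentile was 37.5, 177 of 522 were WT-only (33.9%, interval 30.0 to 38.1). The median GC content in the 300 bp around the midpoint was 66.3% (interval 65.7 to 66.7) in members and 65.7% (interval 65.7 to 66.0) in shared promoter peaks. CpG-dense sequence, with at least 50% GC and an observed over expected CpG ratio of at least 0.6, held 76.8% (interval 74.8 to 78.6) of members and 80.8% (interval 79.8 to 81.7) of shared peaks.

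The members nearest to the thresholds were these. Just inside 1 kb lay the peaks of Nkx2-2, a homeobox factor of neural and pancreatic development, at 998 bp from its TSS with values of 8.50 and 8.25, and of Ninl, a centrosomal protein, at 991 bp with 9.54 and 10.9. Just outside lay WT-only peaks of Slc26a5, at 1006.5 bp with 21.1 and 12.2, and of C1qc, at 1007 bp with 9.57 and 6.73. The members closest to a Spen KO clone 3 peak were at Smap1, whose peak ended 1 bp before one, and at Zfp609, 54 bp from one. The shared promoter peaks with the shortest overlap were those of Plcl2 (91 bp) and Pfn2 (111 bp).

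Most members had no Spen KO clone 3 peak nearby. The median distance to the nearest one was 22.3 kb (interval 20.6 to 23.6), and 91 members (4.81%) had one within 500 bp. The 1893 members belonged to 1854 genes of the 8675 with a WT promoter peak. Of these genes 1634 (88.1%, interval 86.6 to 89.5) had no Spen KO clone 3 promoter peak. Such a peak has its midpoint within 1 kb of a coding TSS of that gene, whether or not the TSS of another gene was nearer. A peak somewhat farther away could still be there. The other 220 genes (11.9%, interval 10.5 to 13.4) had a Spen KO clone 3 promoter peak, and 41 of them had one without a WT counterpart. Members were chosen for having no overlapping Spen KO clone 3 peak, so the distance and the 88.1% follow in part from the rule. The same share over all 8675 genes was not computed. Members of genes with another Spen KO clone 3 promoter peak ranked lower (median score percentile 16.2 against 24.8), lay farther from the TSS (median 147 bp against 77.2 bp), and were less often CpG-dense (54.2% of 227 against 79.8% of 1666).

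Besides Rgs3 and Cald1, the strongest members of this second kind were at Cldn23, a claudin of tight junctions, and 2210009G21Rik. The Cldn23 peak had values of 28.0 and 25.1, and the Spen KO clone 3 list held a peak 346 bp away, with values of 13.2 and 13.2, that overlapped no WT peak. The 2210009G21Rik peak had 32.6 and 16.2, beside a shared peak 264 bp away. At these genes the start region was thus not without a peak in the Spen KO clone 3 list.

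In 42 genes 2 members were found, and in none 3. The pairs with the highest summed scores were at Zfp568, Cep110, Glt8d2, Sesn2, Gm14419 and Zfp148. At Zfp568, which encodes a KRAB zinc finger repressor, the peaks had values of 17.7 and 24.6 and of 14.5 and 16.3. At Sesn2, a stress-induced inhibitor of mTOR signalling, they had 22.4 and 19.9 and 12.6 and 15.8, and at the transcription factor gene Zfp148 they had 19.9 and 23.2 and 9.72 and 14.7. In Cep110, the centriolin gene, which has 6 coding starts, a shared peak at another start lay between both members.

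The members were more frequent where genes were dense. The median number of coding genes starting within 500 kb was 17 (interval 17 to 18) for members and 13 (interval 13 to 14) for shared promoter peaks. WT promoter peaks were put in 4 classes by this number. In class 1, with 0 to 8 genes, 355 of 2436 were WT-only (14.6%, interval 13.2 to 16.0). The share was 19.0% (interval 17.5 to 20.7) with 9 to 14 genes, 24.6% (interval 22.8 to 26.5) with 15 to 24 and 25.3% (interval 23.5 to 27.1) with 25 to 73. The median score percentile fell in the same order, from 64.8 to 57.4. Among promoter peaks scoring below the median of all promoter peaks the share was 29.9% (interval 27.3 to 32.7) in class 1 and 44.6% (interval 41.9 to 47.4) in class 4, and among those above it was 1.81% (interval 1.22 to 2.67) and 2.85% (interval 2.02 to 4.02).

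The median GC content of the peaks moved with gene density as well, from 67.3% in class 1 to 63.3% in class 4. Among the peaks below that median score in the lowest of 4 classes of GC content, the WT-only share was 32.1% (interval 26.5 to 38.2) in gene-poor (class 1) and 45.02% (interval 40.2 to 49.9) in gene-dense surroundings (class 4). In the highest class of GC content it was 31.0% (interval 26.7 to 35.7) and 50.2% (interval 43.6 to 56.9). The promoter peaks found only in the Spen KO clone 3 list did not rise in this way, with 13.2% (interval 11.9 to 14.6) of clone 3 promoter peaks in class 1 and 12.8% (interval 11.4 to 14.3) in class 4. Among the strongest members, Ap2a2 had 38 coding genes within 500 kb, Casc3 35 and Tceb3 24, while Apaf1 had 5, Bckdhb 6 and Gm17391 1, so single strong members were found in both kinds of region.

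**Figure D3:**
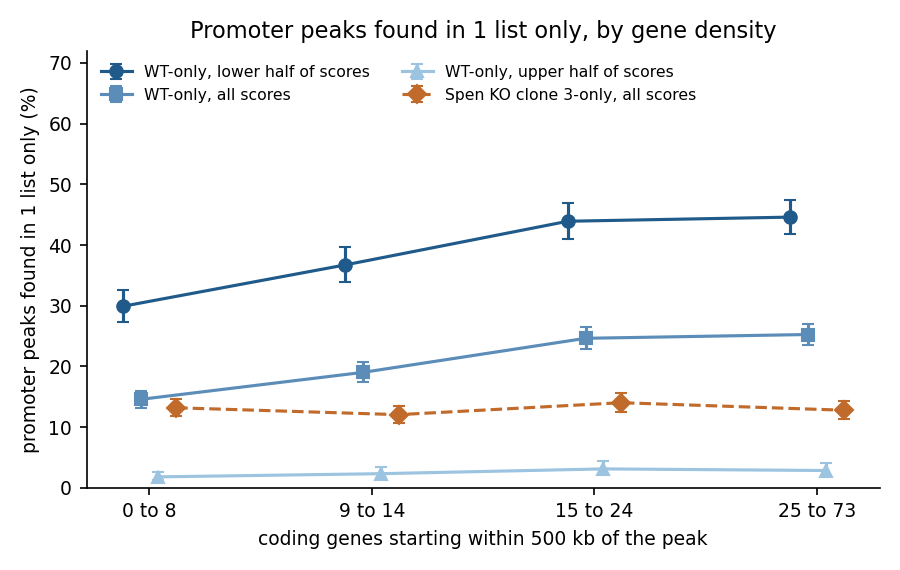
Share of promoter peaks found in 1 list only (y axis, percent, 95% Wilson intervals) in 4 classes of the number of coding genes starting within 500 kb (x axis), for WT-only peaks over all scores and on either side of the median promoter score and for Spen KO clone 3-only peaks. The WT-only share over all scores was 14.6% in the first class and 25.3% in the last, and the Spen KO clone 3-only share was 13.2% and 12.8%.

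By chromosome the share ranged from 14.8% (interval 11.5 to 18.9) on chromosome 12 to 25.7% (interval 21.6 to 30.4) on chromosome 15. The intervals of chromosomes 9, 11 and 15 lay above 20.7% and those of chromosomes 10 and 12 below it. Chromosomes were not compared at like score or gene density.

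Some members were neighbours. There were 86 runs of at least 3 WT promoter peaks in a row that were all WT-only, and they held 287 members. Whether this number differs from that of an even spread was not tested. The longest run held 6 peaks over 361 kb of chromosome 2 (175871813 to 176232830), at the predicted genes Gm6710, Gm8898, Gm2026, Gm14436, Gm14430 and Gm14431. Of these, Gm8898 had values of 18.7 and 28.3 and was the strongest, and Gm14430 had 10.1 and 13.5 and was the weakest. The promoters of this run were low in GC content, from 48.0% to 51.0%, and part of a repeated family. Of the 20-base words in the 300 bp window of Gm8898, 98.9% were also found in another window of the run, while Gm2026 shared at most 34.5% with any of them. Each of the 6 windows shared at least 50% of its words with 6 or 11 other WT promoter peaks. The study's methods describe both an alignment limited to uniquely mapped reads and one that kept reads of repeats, and the list does not say which it came from, so peaks in such copies are uncertain. Among all members 35 (1.85%, interval 1.33 to 2.56) shared at least 50% of their words with another WT promoter peak, against 1.60% (interval 1.34 to 1.92) of shared promoter peaks.

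A run of 5 members within 76.0 kb of chromosome 3 ended at Setdb1, which encodes the H3K9 methyltransferase that silences endogenous retroviruses in mESCs. Its peak (chr3:95160862-95161268) had values of 18.7 and 23.2, with the midpoint 13 bp from the TSS and the nearest Spen KO clone 3 peak 76.7 kb away. The other members of the run were at Fam63a (15.6 and 15.5), Anxa9 (8.96 and 9.22), Gm10691 (9.49 and 7.77) and Lass2 (20.7 and 12.6), the last a ceramide synthase gene. Each had 35 or 36 coding genes starting within 500 kb, so the run lay in a gene-dense region.

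Of 57 gene lists built from symbols, 53 had at least 10 WT promoter peaks. The interval of the WT-only share held the background of 20.7% in 47 of them, lay above it in 5 (germ layer, Wnt, immune, mitochondrial ribosomal and homeobox genes) and below it in 1 (respiratory chain). Among peaks below the median score of the WT list, 44.9% of all promoter peaks were WT-only, and the minimum of 10 peaks was not applied. The interval lay above that share in 2 lists, mitochondrial ribosomal proteins and, with only 4 of 4 peaks, cholesterol and lipid synthesis (interval 51.0 to 100). It lay below in 1, G protein-coupled receptors and G proteins (26.8%, interval 15.7 to 41.9). The germ layer, Wnt, immune, homeobox and respiratory chain intervals held 44.9% there. How many of 53 intervals would lie outside by counting error alone was not computed. The lists share genes in part, and 1239 of 1893 members were in no list. The lists with the highest and lowest shares, and those related to Spen and to the state of mESCs, are described in turn.

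**Figure D4:**
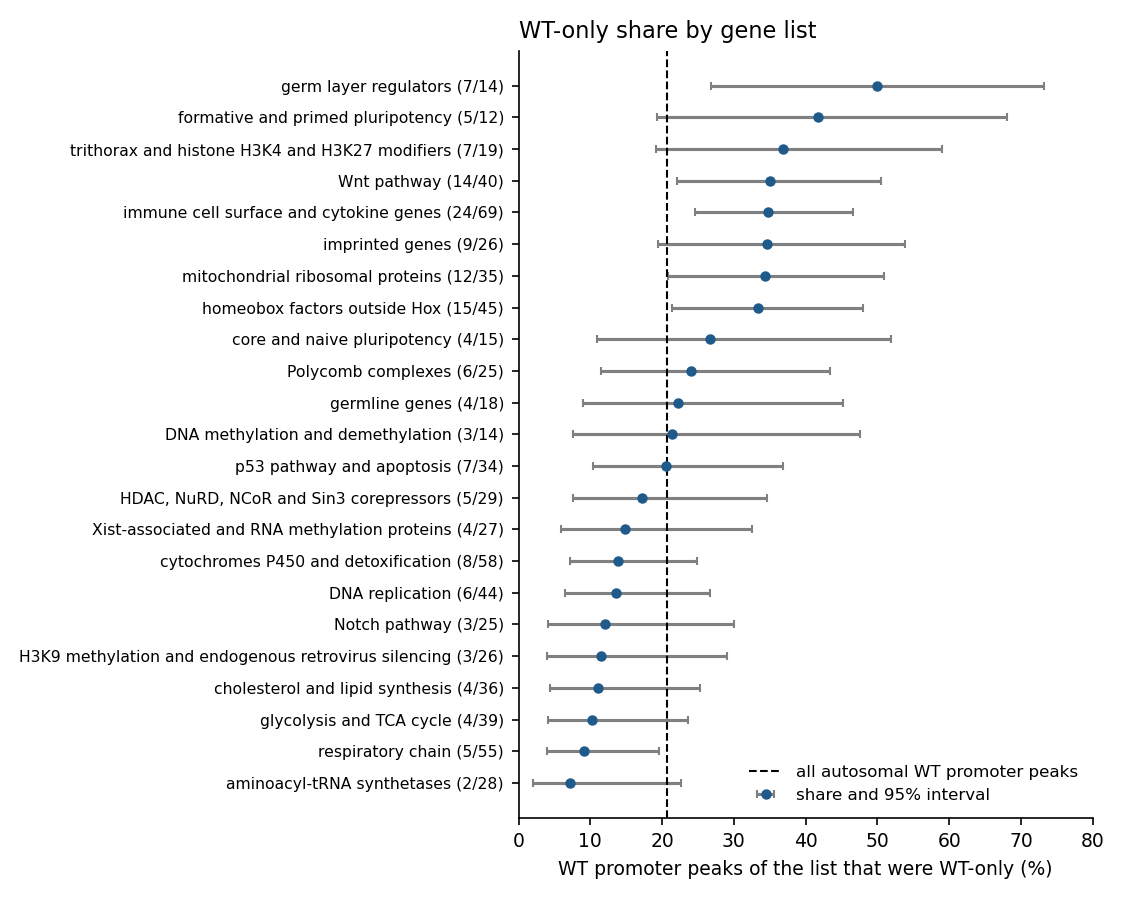
Share of WT promoter peaks that were WT-only (x axis, percent) in the gene lists described, with 95% Wilson intervals, the counts beside each name and the share over all autosomal WT promoter peaks as a dashed line. Of these lists germ layer regulators stood highest at 50% and aminoacyl-tRNA synthetases lowest at 7.14%.

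Regulators of the germ layers, most of which are silent or poised in mESCs, had the highest share of the lists with at least 10 WT promoter peaks, with 7 of 14 promoter peaks WT-only (50%, interval 26.8 to 73.2). The median score percentile of the list was 38.0, against 61.3 for all WT promoter peaks. Below the median score 7 of its 11 peaks were WT-only (63.6%, interval 35.4 to 84.8), and the interval held the 44.9% of all promoter peaks there. The strongest were at Olig1 (22.0 and 14.7) and Olig2 (15.3 and 19.2), basic helix-loop-helix factors of the oligodendrocyte and motor neuron lineages that lie side by side on chromosome 16. The eye and forebrain factor Pax6 held 2 members, the stronger with 16.1 and 11.1, and the keratin gene Krt18 had 10.1 and 11.5.

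Homeobox factors outside the Hox clusters, which pattern the embryo, had 15 of 45 peaks WT-only (33.3%, interval 21.4 to 47.9) at a median score percentile of 52.2. Below the median score 12 of 20 were members (60.0%, interval 38.7 to 78.1), an interval that held 44.9%. The strongest were at Dlx1 (24.6 and 24.3), a forebrain factor, Irx2 (21.4 and 25.2), Hlx (20.9 and 18.3) and the cortical factor Emx1 (25.4 and 12.5). The Dlx1 and Irx2 peaks were 126 and 189 kb from any Spen KO clone 3 peak.

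The Wnt pathway had 14 of 40 peaks WT-only (35.0%, interval 22.1 to 50.5), at a median score percentile of 46.5. Below the median score 11 of 21 were members (52.4%, interval 32.4 to 71.7), an interval that held 44.9%. The receptors Lgr5 (27.3 and 20.7), which binds R-spondins, and Fzd2 (20.8 and 23.1), a Frizzled receptor, stood highest. The inhibitor Nkd1, itself a Wnt target, had 25.2 and 18.4, and the destruction complex scaffold Apc 12.2 and 19.6. The other members included those of Lrp6, a coreceptor, Tcf7l1 and Tcf7, nuclear factors that bind beta-catenin, and the ligands Wnt4 and Wnt11. Tcf7l1 also had another Spen KO clone 3 promoter peak.

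Cell surface and cytokine genes of the immune system had 24 of 69 peaks WT-only (34.8%, interval 24.6 to 46.6) at a median score percentile of 42.1. The strongest were at H2-T22 (20.8 and 21.8) and H2-K1 (17.98 and 16.3) of the class I histocompatibility complex, at Il10rb (22.1 and 14.1), a cytokine receptor subunit, and at Tnfrsf19 (14.3 and 20.1). How far the sequence of the H2 peaks is shared with other H2 genes was not tested. All but 1 of the 24 lay below the median score of the WT list, where 23 of 40 peaks of the list were members (57.5%, interval 42.2 to 71.5), an interval that held the 44.9% of all promoter peaks there.

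Mitochondrial ribosomal proteins had 12 of 35 peaks WT-only (34.3%, interval 20.8 to 50.8) at a median score percentile of 55.1, with the lower bound just above the background. When each peak was given to every gene with a coding TSS within 1 kb, the share was 27.1% (interval 16.6 to 40.997), which held the background. Below the median score 10 of 13 were members (76.9%, interval 49.7 to 91.8), against 44.9% of all WT promoter peaks there. The small subunit genes Mrps17 (16.5 and 22.9), Mrps21 (22.1 and 17.2) and Mrps25 (14.3 and 21.6) and the large subunit gene Mrpl20 (17.9 and 14.9) had the highest scores.

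The lists of formative and primed pluripotency, of trithorax and histone modifiers, and of imprinted genes also had high shares, but their intervals held the background. In the first, which holds genes that rise as mESCs leave the naive state, 5 of 12 peaks were WT-only (41.7%, interval 19.3 to 68.0), at a median score percentile of 32.3. They were at Pou3f1 (17.96 and 23.6), Myc (13.9 and 12.4), Sall2 (11.8 and 8.32), Mycn (8.75 and 9.47) and Dnmt3b (7.86 and 8.11). Myc and Dnmt3b each also had a promoter peak in the Spen KO clone 3 list, for Dnmt3b with the nearest peak of that list 0.601 kb from the member.

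Among trithorax and histone modifiers 7 of 19 peaks were WT-only (36.8%, interval 19.15 to 58.96), at a median score percentile of 32.9. Ash2l, a core subunit of the H3K4 methyltransferase complexes, had a member with 17.6 and 18.5, the acetyltransferase gene Crebbp one with 13.5 and 19.105, the demethylase gene Kdm5a one with 13.8 and 14.1, and the methyltransferase gene Setd1a one with 13.8 and 13.4. Of imprinted genes 9 of 26 were WT-only (34.6%, interval 19.4 to 53.8) at a median score percentile of 36.2, led by Cdkn1c (14.2 and 17.2), a cell cycle inhibitor, Mkrn3 (15.0 and 15.9), Ascl2 (13.01 and 16.2) and Gnas (11.6 and 11.6), the last with a Spen KO clone 3 peak at another start. None of the members of these 2 lists was at or above the median score.

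In the core and naive pluripotency list 4 of 15 peaks were WT-only (26.7%, interval 10.9 to 52.0), all below the median score, and the median score percentile of the list was 61.2. They were at Sall4 (16.5 and 14.9), L1td1 (13.4 and 16.2), Sox2 (11.8 and 17.8) and Lin28a (12.8 and 11.3), of which Sall4 and Sox2 encode transcription factors and L1td1 and Lin28a RNA-binding proteins of the mESC state. For L1td1 the nearest Spen KO clone 3 peak was 0.814 kb away and for Sox2 18.2 kb. The peaks of Zfp42 and Utf1 were shared.

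In the lists of chromatin repressors the intervals held the background. Polycomb complexes had 6 of 25 peaks WT-only (24.0%, interval 11.5 to 43.4) at a median score percentile of 50.4, led by L3mbtl2 (15.6 and 23.3), Pcgf6 (20.4 and 15.4), Phc3 (15.3 and 15.1) and Ring1 (12.7 and 15.3), subunits of the repressive complexes that ubiquitinate or compact chromatin. The HDAC, NuRD, NCoR and Sin3 corepressors, the class of complexes through which Spen acts, had 5 of 29 (17.2%, interval 7.60 to 34.5), at a median score percentile of 74.1. The leading members were at Brms1 (18.6 and 19.4), Mta2 (16.6 and 14.9), Hdac7 (13.5 and 17.4) and Sap18 (13.2 and 14.9). All 5 lay below the median score.

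The list of H3K9 methylation and endogenous retrovirus silencing had 3 of 26 (11.5%, interval 4.003 to 28.98), at a median score percentile of 66.6. Beside Setdb1 they were at Cbx1 (14.5 and 16.7), which encodes a heterochromatin protein HP1, and Wiz (10.7 and 11.2), a zinc finger partner of the G9a methyltransferase. DNA methylation and demethylation had 3 of 14 (21.4%, interval 7.57 to 47.6) at a median score percentile of 63.6, namely at the methyl-CpG binding gene Zbtb38 (26.3 and 17.6), the dioxygenase gene Tet3 (17.2 and 19.8) and Dnmt3b, of which Zbtb38 and Dnmt3b also had a Spen KO clone 3 promoter peak. Genes of proteins that bind Xist or methylate RNA had 4 of 27 promoter peaks WT-only (14.8%, interval 5.92 to 32.5), at a median score percentile of 58.8. These were at Ythdf2 (19.0 and 21.4) and Wtap (24.5 and 15.1), a reader and a writer subunit of m6A, Hnrnpm (15.1 and 17.2) and Hnrnpu (15.8 and 10.8).

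The Notch pathway, in which Spen acts as a corepressor with Rbpj, had 3 of 25 (12%, interval 4.17 to 30.0), at a median score percentile of 58.7. The members were at Psen2 (15.9 and 25.4), a subunit of the gamma-secretase that cleaves Notch, at the atypical ligand gene Dlk2 (13.7 and 16.0) and at Hes6 (13.7 and 11.4). Hes6 had another Spen KO clone 3 promoter peak, and the nearest Spen KO clone 3 peak of any kind was 0.426 kb from its member. The p53 and apoptosis list had 7 of 34 (20.6%, interval 10.3 to 36.8) at a median score percentile of 62.8, led by Apaf1, Sesn2, the stress gene Gadd45g (19.7 and 11.6) and Bid (13.7 and 16.8), a BH3-only activator of apoptosis. Germline genes had 4 of 18 (22.2%, interval 9.001 to 45.2) at a median score percentile of 66.1, namely at Tdrd7 (15.3 and 15.6), Msh4 (12.7 and 14.3), Tex19.1 (14.9 and 11.8) and Tex15 (9.77 and 7.78). Msh4 also had another Spen KO clone 3 promoter peak, with the nearest Spen KO clone 3 peak 0.741 kb from its member.

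Respiratory chain genes had 5 of 55 peaks WT-only (9.09%, interval 3.95 to 19.6), the 1 list whose interval lay below the background, at a median score percentile of 66.5. When each peak was given to every gene with a coding TSS within 1 kb, the share was 11.9% (interval 6.18 to 21.8), which held the background. The members were at the complex I genes Ndufv3 (25.3 and 18.6), Ndufs5 (21.1 and 15.0), Ndufb7 (15.2 and 13.9) and Ndufa10 (13.6 and 13.8), and at Atp5d of the ATP synthase. Below the median score 4 of 16 of its peaks were WT-only (25%, interval 10.2 to 49.5), an interval that held 44.9%. The shares of the respiratory chain and of the mitochondrial ribosomal proteins, both encoded in the nucleus, had intervals that did not overlap, but they overlapped under that other gene assignment.

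Aminoacyl-tRNA synthetases had 2 of 28 (7.14%, interval 1.98 to 22.6) at a median score percentile of 74.4, namely at Hars2 (19.9 and 15.9) and Vars (13.9 and 15.9). Glycolysis and the TCA cycle had 4 of 39 (10.3%, interval 4.06 to 23.6) at a median score percentile of 73.5, namely at Pgam1 (15.7 and 15.3), Gpi1 (11.4 and 10.98) and the dehydrogenase subunits Dlat (12.8 and 16.9) and Dlst (14.9 and 14.1). Cholesterol and lipid synthesis had 4 of 36 (11.1%, interval 4.41 to 25.3), at Scap (19.9 and 12.98), the escort of SREBP, Tm7sf2 (13.4 and 14.5), Elovl2 (13.8 and 13.3) and Elovl4 (12.6 and 9.30). Its peaks were strong, with a median score percentile of 83.5, and all 4 of its peaks below the median score were members.

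DNA replication had 6 of 44 (13.6%, interval 6.40 to 26.7) at a median score percentile of 76.9, led by the helicase subunit Mcm2 (18.5 and 28.4), Tipin (15.6 and 22.8), Top3b (15.6 and 20.6) and the polymerase gene Pold1 (17.4 and 16.0). The list of cytochromes P450 and detoxification had 8 of 58 (13.8%, interval 7.16 to 24.9), at a median score percentile of 65.9. Its strongest members were all ABC transporters, Abca2 (16.7 and 24.3), Abcc1 (19.3 and 17.3), Abcd3 (15.4 and 21.0) and Abca5 (17.4 and 17.2). None of the 14 members of these 2 lists lay among the 12 strongest.

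Sequence words were counted on both strands of the 300 bp around each midpoint, for 16 motifs. For 14 of them the intervals of members and shared promoter peaks overlapped, among them the ETS word CCGGAAG (17.3% and 18.3%), the Rbpj word GTGGGAA (5.12% and 5.50%), the E-box CACGTG (8.77% and 8.90%) and the TATA box TATAAA (3.22% and 2.69%). The GC box GGGCGG, bound by Sp and KLF factors, was in 68.8% (interval 66.7 to 70.8) of members and 73.7% (interval 72.7 to 74.7) of shared peaks. Within bands 1 to 4 of 5 bands of like score its intervals overlapped, with 70.8% of members and 70.5% of shared peaks in band 2. The CCAAT box, bound by NF-Y, differed most, with 526 of 1893 members (27.8%, interval 25.8 to 29.8) and 3009 of 7240 shared peaks (41.6%, interval 40.4 to 42.7). In 600 bp around the midpoint 42.6% of members held CCAAT, 10.7% GTGGGAA and 8.98% TATAAA, so these shares depend on the window.

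The CCAAT share also rose with the score, and within bands of like score the intervals of members and shared peaks overlapped in bands 1 to 4. In band 1 of 5, the lowest scores, it was 24.7% (interval 22.2 to 27.4) in members and 23.5% (interval 20.5 to 26.6) in shared peaks, in band 2 28.6% and 27.7%, and in band 3 35.04% and 33.8%. In band 4 it was 57.6% (interval 40.8 to 72.8) of 33 members and 43.9% (interval 41.6 to 46.2) of shared peaks. In band 5, with 1 member, it reached 63.2% of shared peaks. In the promoter peaks found only in the Spen KO clone 3 list it was 25.1% (interval 22.6 to 27.8), close to that of the members.

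**Figure D5:**
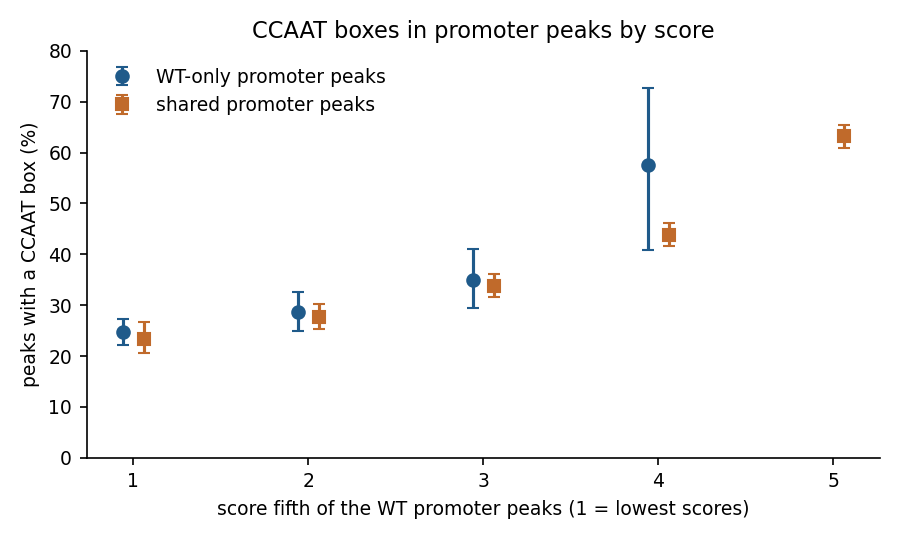
Share of promoter peaks with CCAAT on either strand in 300 bp (y axis, percent, 95% Wilson intervals) in 5 bands of the score (x axis), for WT-only and shared peaks, leaving out groups of under 20 peaks. In band 1 the shares were 24.7% and 23.5%, and in band 5 63.2% of shared peaks had the box.

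CpG density followed the score as well. Of CpG-dense WT promoter peaks 19.9% (interval 19.0 to 20.8) were WT-only and of the others 24.0% (interval 22.1 to 26.0), at median score percentiles of 62.8 and 54.7. Below the median promoter score the shares were 38.5% and 40.7% and above it 2.52% and 2.26%, with overlapping intervals in both. Promoters with coding starts on both strands were WT-only in 16.5% (interval 14.2 to 19.0) of 934 cases, against 21.2% (interval 20.3 to 22.1) of those with starts on 1 strand, and their median score percentile was 70.3 against 60.4.

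Compared with the 1084 promoter peaks found only in the Spen KO clone 3 list, which were 13% (interval 12.3 to 13.7) of the promoter peaks of that list, the members were more often CpG-dense, 76.8% against 66.4% (interval 63.6 to 69.2), and less often beyond 500 bp from the TSS, 9.35% against 17.0% (interval 14.9 to 19.3). The Spen KO clone 3-only peaks also ranked lower, at a median score percentile of 12.8 (interval 11.8 to 14.2) within their own list. Members stood at 23.9 (interval 22.7 to 25.3) within the WT list. Among WT promoter peaks, CpG density and distance from the TSS both moved with the score. Whether the contrast holds between peaks of like score was not tested. These intervals cover counting error only, not the variation between cultures or clones.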

How the data were processed

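ATAC-seq was measured in haploid mESC lines. Per the study's methods, the authors used CutAdapt for trimming and Bowtie2 for alignment to mm9, discarded duplicate reads and, in 1 of 2 versions of the alignment, multi-mapped reads, and ran MACS2 per technical replicate. Peaks that passed an IDR threshold were kept, and no IDR in either list exceeded 0.0500. The deposited lists, 1 for WT and 1 for Spen KO clone 3, give for each peak its position, its length and, in 1 column, the value of each replicate and the IDR. The scale of these values is not given in the sources used here, and no read counts were used, so depth is unknown.

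Here, overlap of at least 1 bp, the nearest coding TSS (GENCODE for mm9) and mm9 sequence were computed with Python 3.11.15, numpy 2.4.6, pandas 2.3.3 and scipy 1.17.1, and the functions were tested on simulated data. Intervals are at 95% (Wilson for shares, binomial for medians) and include no error beyond counting. No test was made across peaks. Motif matches could overlap each other, and a 600 bp window was an alternative to 300 bp. WT peaks were given to the gene of the nearest coding TSS, while a Spen KO clone 3 promoter peak counted for every gene with a coding TSS within 1 kb.

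The members and gene lists were chosen with earlier results of these data known. Named were the 12 highest-scoring members, the 8 highest among genes without a Spen KO clone 3 promoter peak, the 6 gene pairs with the highest sums, up to 4 members per list described, and the peaks beside each threshold. The members of the longest runs, further genes named in lists, the strata by gene density and GC content, the list shares below the median score and the motif shares by score were chosen after their values were seen.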

Additional observations from a re-analysis of the deposited data

How the results depend on the processing

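The WT-only share of promoter peaks was 19.7% when a Spen KO clone 3 peak within 500 bp counted as shared, 21.8% when an overlap of 50% of the WT peak was required, 25.8% with an IDR of at most 0.01 in both lists, and 18.2% when any Spen KO clone 3 promoter peak of the same gene counted. With scores at or above the median of the WT list, 321 members (5.70%) were left, of which 84.7% were CpG-dense, and 9.35% of their genes had a Spen KO clone 3 promoter peak. Within 2000 bp of a TSS this last share was 17.4%. The median score percentile was 25.1 to 25.5 without either replicate and 16.8 among promoter peaks. The median GC content of whole peaks was 64.0%. Without peaks that share sequence with another promoter peak, an alternative chosen after seeing the data, 1858 members (20.7%) were left. Of the 53 list shares, 47 moved beyond their interval with scores at or above the median and 0 with genes of every TSS within 1 kb, although there the mitochondrial ribosomal (27.1%) and respiratory chain (11.9%) intervals came to hold the background. Of 16 motif shares of members, 15 moved in a 600 bp window. The cause of these changes was not tested. No paired analysis was possible because each line has 1 list.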

Other observations

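The X chromosome, which was left out above, had 382 WT promoter peaks, of which 42 were WT-only (10.99%, interval 8.24 to 14.5), against 20.7% on the autosomes. The scores and gene density of the X chromosome peaks were not compared with those of the autosomes, and the cause of the gap was not tested. The doxycycline state of the lists is not stated.

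Promoter peaks of predicted genes named Gm were WT-only in 54 of 188 cases (28.7%, interval 22.7 to 35.6), and those of named genes in 20.6% (interval 19.7 to 21.5), at median score percentiles of 59.7 and 61.2. Genes with 1 coding start and genes with 5 or more had shares of 20.3% and 21.3%, with overlapping intervals.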
